A study of Homo sapiens with 38 samples.

Results

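The 10 genes described here mark the mesenchymal state of neuroblastoma: the transcription factors PRRX1, RUNX1, TWIST1 and SNAI2, the co-activators YAP1 and WWTR1, the receptor NOTCH2, and VIM, FN1 and CD44 of the cytoskeleton, matrix and cell surface. They were picked by symbol and not by a rule on their values, but with earlier results of these data known. They were 10 of the 50652 genes listed for BE2C cells and 10 of the 50778 genes listed for the other lines. All 10 passed the filter on low counts in the palbociclib experiment, 9 did so in the GSK-J4 experiment (PRRX1 did not) and 8 in the siRNA experiment (PRRX1 and RUNX1 did not).

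Neuroblastoma is a childhood tumor of the sympathetic nervous system, and its cells are known to occupy an adrenergic state, held by factors such as HAND2 and GATA3, or a mesenchymal state that resembles neural crest cells. PRRX1 is known to drive adrenergic cells toward the mesenchymal state, and NOTCH2 is a NOTCH receptor. YAP1 and WWTR1 (also called TAZ) act through the DNA-binding TEAD factors, while SNAI2 and TWIST1 are regulators of epithelial-mesenchymal transition in many tissues.

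RNA-seq counts came from 5 established human neuroblastoma cell lines. BE2C cells, grown in RPMI medium, received a control siRNA (siCtrl, 2 libraries) or 1 of 3 siRNAs against the histone demethylase KDM6B (N1, N2 and N33, 1 library each) for 72 h, or the KDM6 inhibitor GSK-J4 at 2.5 μM, sampled at 0, 24 and 48 h with 2 libraries per time. The lines CHLA15 and CHLA20 received the CDK4/6 inhibitor palbociclib at 300 nM and the lines NB1643 and NB1691 at 3 μM, all for 72 h in DMEM per the labels (the methods give RPMI for CHLA15, CHLA20 and NB1691), beside untreated cells of the same line (2 libraries per line and condition). No transgene or deletion was named for any line, each group is a culture of a single line, and no source used here states whether libraries of a group came from separate cultures, so p-values measure the spread between libraries only.

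Libraries held between 36186567 and 93011010 counts on genes, and 3 counts, taken as the detection limit of a library, corresponded to 0.0844 CPM or less. CPM are counts scaled to a common library size, here with TMM factors that correct for composition. Counts and limits cover counting error only. The KDM6B siRNAs did not show in KDM6B RNA, at 6.47 and 8.76 CPM in the controls and 8.99, 7.11 and 8.26 CPM with N1, N2 and N33, so these are called the libraries labelled siKDM6B. The paper reports KDM6B knockdown by immunoblot in BE2C cells transfected with KDM6B siRNAs, and RNA counts do not measure protein. The untreated NB1691 libraries stood apart from the other 3 untreated lines. Whether they match the line on their label was not tested, and NB1691 here means the libraries so labelled. In them, a list of 20 adrenergic genes summed to 813 to 868 CPM against 3470 to 5169 CPM, with TH, an enzyme of noradrenaline synthesis, at 0.688 to 0.752 CPM. MYCN, the oncogene amplified in part of these tumors, was at 86.1 and 86.5 CPM there, 3093 and 3257 CPM in NB1643, 2.29 and 2.28 CPM in CHLA15 and 2.89 and 3.39 CPM in CHLA20.

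Positions of the members are on the GRCh37 assembly, from the GENCODE annotation lifted to it. PRRX1 spans chromosome 1 from 170631869 to 170708562 (plus strand) and NOTCH2 chromosome 1 from 120454176 to 120643366 (minus strand). YAP1 spans chromosome 11 from 101981178 to 102104155 (plus strand), CD44 chromosome 11 from 35160429 to 35253949 (plus strand), FN1 chromosome 2 from 216225163 to 216300796 (minus strand) and WWTR1 chromosome 3 from 149235022 to 149454501 (minus strand). VIM spans chromosome 10 from 17270240 to 17279592 (plus strand), TWIST1 chromosome 7 from 19060614 to 19157259 (minus strand) and RUNX1 chromosome 21 from 36160098 to 37376965 (minus strand). SNAI2 is named only. Counts were taken over whole genes, so exons of different isoforms cannot be told apart.

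Promoters of YAP1, FN1 and VIM are shown because YAP1 and FN1 had the widest range between lines of the members and VIM was abundant in every line and rose with GSK-J4. Each run is the 250 bases before the RefSeq start (table on GRCh38.p14), which matched GRCh37 exactly at 1 place of its chromosome, written 5′ to 3′ on the gene's strand. Capitals mark GGAATG (the letters bound by TEAD factors) and CACGTG (an E-box of MYC and related factors) in YAP1 at chr11:101980928-101981177 (plus), TGACGT on both strands (a CREB and ATF site, the 2 matches overlapping in 1 palindrome) in FN1 at chr2:216300792-216301041 (minus), and TGTGGT (the letters bound by RUNX factors) in VIM at chr10:17269990-17270239 (plus).
YAP1: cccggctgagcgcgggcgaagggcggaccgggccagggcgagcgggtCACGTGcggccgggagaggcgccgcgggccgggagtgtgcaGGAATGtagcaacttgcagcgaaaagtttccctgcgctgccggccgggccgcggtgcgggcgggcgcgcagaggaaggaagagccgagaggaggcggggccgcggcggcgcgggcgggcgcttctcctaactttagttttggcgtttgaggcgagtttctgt
FN1: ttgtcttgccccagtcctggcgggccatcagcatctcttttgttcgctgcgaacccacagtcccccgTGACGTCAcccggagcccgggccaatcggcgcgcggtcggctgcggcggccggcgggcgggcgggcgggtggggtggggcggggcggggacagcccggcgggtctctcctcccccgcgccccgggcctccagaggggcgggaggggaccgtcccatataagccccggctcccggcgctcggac
VIM: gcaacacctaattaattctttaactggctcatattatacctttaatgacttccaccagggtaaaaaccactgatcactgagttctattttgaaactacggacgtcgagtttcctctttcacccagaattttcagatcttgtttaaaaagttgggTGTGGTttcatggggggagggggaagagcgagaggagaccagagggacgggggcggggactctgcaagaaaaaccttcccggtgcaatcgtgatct
Over 9 RefSeq promoters of 8 members, searched on both strands, GGAATG was present in 2 (YAP1 and RUNX1) against 11.9% of all 35116 promoters, TGTGGT in 2 (VIM and 1 of the WWTR1 promoters) against 11%, CACGTG in 1 against 6.34% and TGACGT in 1 against 7.1%. CAGGTG (an E-box of SNAI factors) and TGANTCA (AP-1), found in 17.5% and 6.57% of all promoters, were not in these windows. A match describes letters only.

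In untreated cells, NB1691 had the highest level of 8 of the 10 members. How often NB1691 was highest over all genes was not counted. PRRX1 and YAP1 passed the filter on low counts only through NB1691, so counts and medians are given over the other 8 members. Of these, 8 of 8 differed between NB1691 and CHLA15 (7 higher, 1 lower in NB1691), beside 78% of all 22133 genes tested (42.3% higher, 35.7% lower), and 8 of 8 differed from CHLA20 (7 higher, 1 lower) beside 77.5% of all genes (42.4% higher, 35.1% lower). Against NB1643, 7 of 8 differed (6 higher, 1 lower) beside 80.7% (44.6% higher, 36.1% lower). Since most genes differed between these lines, the counts alone are near the background. The median log2 fold change of NB1691 over the 8 members was 2.42 against CHLA15, 2.30 against CHLA20 and 3.22 against NB1643, beside 0.083, 0.104 and 0.128 over all genes, and 8, 8 and 7 members differed at least 2-fold beside 48%, 47.3% and 51.8% of all genes. These comparisons share the NB1691 libraries. Tests were edgeR's quasi-likelihood F test with Benjamini-Hochberg adjustment over all genes, called at an adjusted p under 0.05.

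Both co-activators were high in NB1691 alone. YAP1 was at 192 and 197 CPM in untreated NB1691, 0.186 and 0.0738 CPM in CHLA20, 0.0659 and 0.104 CPM in CHLA15, and had no counts in either NB1643 library. NB1691 therefore had at least 3373-fold more YAP1 RNA than NB1643, and its libraries lay above those of all other lines. YAP1 in CHLA20 and CHLA15 did not differ beyond the spread of the libraries (adjusted p = 0.454). These levels, from 11 counts in all in CHLA15 and 16 in CHLA20, were at least 1.48-fold (CHLA15) and 2.25-fold (CHLA20) above the detection limit in NB1643. WWTR1 was at 60.6 and 60.03 CPM in NB1691, 2.49 and 2.42 CPM in CHLA15, 1.52 and 1.48 CPM in CHLA20 and 0.341 and 0.441 CPM in NB1643. All steps of this order differed, the widest by 24.5-fold from NB1691 to CHLA15 (log2 fold change 4.62 ± 0.096 SE, adjusted p = 1.09e-18), and the narrowest from CHLA15 to CHLA20 (adjusted p = 0.00187).

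The matrix gene FN1, which encodes fibronectin, took more counts than any other gene in all 4 NB1691 libraries. It was at 61798 and 61799.9 CPM in untreated NB1691, 556 and 533 CPM in CHLA15, 282 and 200.2 CPM in CHLA20 and 4.13 and 4.68 CPM in NB1643. FN1 took 5.02 to 6.06% of all counts on genes in the 4 NB1691 libraries. Every step of the order differed, with 113-fold between NB1691 and CHLA15 (log2 fold change 6.83 ± 0.13 SE, adjusted p = 2.35e-19) and 55.1-fold between CHLA20 and NB1643 (adjusted p = 3.95e-17). VIM, the intermediate filament vimentin, was at 2285 and 2346 CPM in NB1691, 672 and 646 CPM in CHLA15, 522 and 548 CPM in CHLA20 and 419 and 392 CPM in NB1643. VIM was thus abundant in all lines and covered a far narrower range, with NB1691 5.70-fold above NB1643 and every step called (adjusted p between 1.5e-16 and 0.00066). CD44, the hyaluronan receptor, was at 122 and 119.8 CPM in NB1691, 35.2 and 33.7 CPM in CHLA15, 35.7 and 33.1 CPM in CHLA20 and 13.2 and 14.7 CPM in NB1643. CHLA15 and CHLA20 were not told apart in CD44 (95% interval of the log2 difference -0.13 to 0.13), while the step from NB1691 to CHLA15 was 3.50-fold and from CHLA20 to NB1643 2.47-fold (adjusted p = 2.16e-15 and 3.74e-12).

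The 4 transcription factors did not share 1 order. PRRX1 was at 2.08 and 1.65 CPM in untreated NB1691, had 0 and 1 counts in CHLA15, and none in CHLA20 or NB1643. It was at least 33.7-fold higher in NB1691 than in CHLA20 and at least 32.4-fold higher than in NB1643, and the ratio to CHLA15 was 246 (95% counting interval 43.8 to 9759). Because PRRX1 passed the filter only through NB1691, these are given without a test, and the interval covers counting error only. SNAI2 was at 107 and 106 CPM in NB1691 and between 8.79 and 12.3 CPM in the other 6 untreated libraries. Its step from NB1691 to CHLA20 was 9.15-fold (log2 fold change 3.19 ± 0.073 SE, adjusted p = 4.16e-18), CHLA20 and NB1643 were not told apart (adjusted p = 0.165), and NB1643 was 1.19-fold above CHLA15 (adjusted p = 0.0106).

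RUNX1 and TWIST1 departed from that order. RUNX1 was at 15.4 and 15.9 CPM in NB1691 and 16.1 and 17.1 CPM in NB1643, against 3.15 and 2.52 CPM in CHLA15 and 3.23 and 2.49 CPM in CHLA20. The NB lines were not told apart (log2 difference of NB1691 over NB1643 -0.085, 95% interval -0.28 to 0.11, and -0.27 with an adjusted p of 0.0111 under upper-quartile scaling), nor were the CHLA lines (-0.27 to 0.29), while NB1691 was 5.42-fold above CHLA20 (adjusted p = 1.77e-13). TWIST1 was lowest in NB1691, at 15.5 and 15.5 CPM, with 203 and 189.6 CPM in CHLA15, 185 and 200.4 CPM in CHLA20 and 159.7 and 156 CPM in NB1643. NB1691 was 10.2-fold below NB1643 (log2 fold change -3.35 ± 0.066 SE, adjusted p = 4.53e-19), and CHLA15 and CHLA20 were not told apart (adjusted p = 0.865).

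NOTCH2, the receptor among the members, was at 321 and 337 CPM in NB1691, 77.3 and 70.4 CPM in CHLA20, 63.8 and 60.7 CPM in CHLA15 and 23.4 and 18.2 CPM in NB1643. NB1691 was 4.46-fold above CHLA20 (log2 fold change 2.16 ± 0.097 SE, adjusted p = 1.37e-13), CHLA20 and CHLA15 were not told apart (adjusted p = 0.105, and 0.00267 with no filter), and CHLA15 was 2.97-fold above NB1643 (adjusted p = 9.62e-11). NOTCH2NL, a near-identical copy, was at 2.21 CPM or less in all 27 libraries, VIM-AS1 at 2.54 CPM or less and WWTR1-AS1 at 0.56 CPM or less. How the counting used strand and split reads between copies is not given in the sources used here, so the lowest NOTCH2, VIM and WWTR1 values may hold reads of these neighbours.

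**Figure D1:**
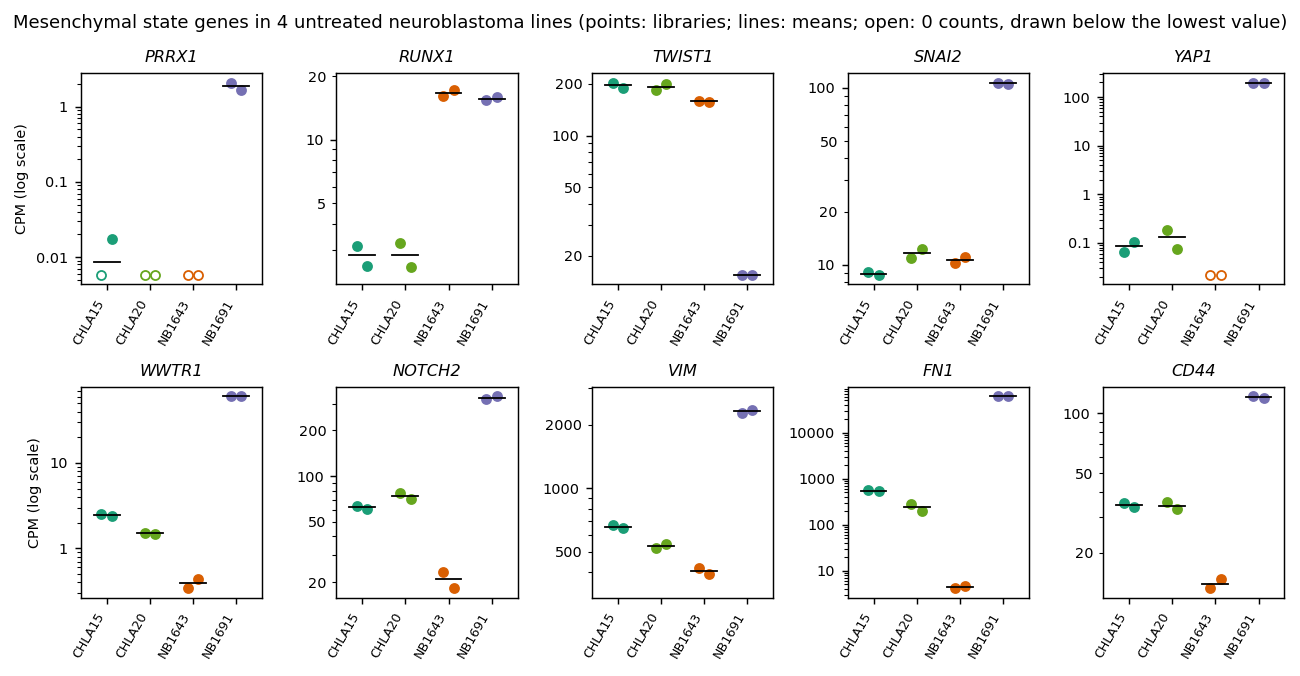
Level of each of the 10 members in the untreated libraries of the 4 palbociclib lines, in CPM on a log axis. Points are libraries, black lines are group means, and open points are libraries with 0 counts, drawn below the lowest value. NB1691 is the highest of the 4 palbociclib lines for 8 members, level with NB1643 for RUNX1 and lowest for TWIST1.

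Within the lines the members also differed in level per length. Per kb of the main transcript, untreated NB1691 held 7366 CPM of FN1 and 1075 CPM of VIM, then 48.7 CPM of SNAI2, 35.9 CPM of YAP1, 28.8 CPM of NOTCH2, 22.2 CPM of CD44, 12.0 CPM of WWTR1, 9.51 CPM of TWIST1, 2.62 CPM of RUNX1 and 0.46 CPM of PRRX1. In untreated CHLA15, VIM (306 CPM per kb) and TWIST1 (120.3 CPM per kb) led, ahead of FN1 (64.9 CPM per kb). In untreated NB1643, VIM (188 CPM per kb) and TWIST1 (96.8 CPM per kb) led by far, with FN1 at 0.525 CPM per kb.

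The contrasts among lines without NB1691 separated the members from each other. NB1643 differed from CHLA15 in 9 of 10 members, beside 64.6% of all genes (30.2% higher, 34.4% lower), with RUNX1 and SNAI2 higher and 7 members lower. From CHLA20 it differed in 8 of 10 (RUNX1 higher, 7 lower), beside 64.5% (30.1% higher, 34.3% lower). PRRX1 and YAP1, which passed the filter on low counts only through NB1691, are kept in the member counts of this paragraph. The lower YAP1 rests on 0 counts in NB1643 against 11 in CHLA15 and 16 in CHLA20. Over the 9 members with a fold (PRRX1 had none), the median log2 fold changes were -0.70 and -1.17 with YAP1 at its bound and -1.31 in both with its fitted value, beside 0 over all genes in both. CHLA15 and CHLA20, which derive from the same patient, differed in 4 of 10 members beside 12.4% of all genes (6.29% higher, 6.07% lower): FN1, WWTR1 and VIM were lower in CHLA20 by 2.26-fold, 1.64-fold and 1.23-fold, and SNAI2 was 1.30-fold higher. The count over all genes, 2736, went to 1130 without untreated CHLA15 replicate 1, 1305 without CHLA15 replicate 2, 1370 without CHLA20 replicate 2 and 1285 in a fit of these groups alone. The SNAI2 call was lost without untreated CHLA20 replicate 2 (log2 fold change 0.293, adjusted p = 0.0576).

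Genes of the same biology were read from lists beside the share over all genes in this contrast, of which 42.3% were higher in NB1691 than in CHLA15 and 35.7% lower. Here 30 of 30 other mesenchymal transcription regulators were higher in NB1691 (median log2 fold change 3.42, beside 0.083 over all genes), led by RUNX2 at 304 CPM and GLIS3 at 106 CPM, which were at 0.00659 and 0.199 CPM in CHLA15. Of 25 matrix, integrin and cytoskeletal genes 23 were higher and 1 lower (median 4.34), with CAV1, the caveolae protein, at 311 against 0.057 CPM. Of 18 TEAD, Hippo and YAP1 target genes 14 were higher and 3 lower, with CTGF at 2079 against 0.147 CPM and CYR61 at 1316 against 0.429 CPM, both classic YAP1 targets. Unlike the members, list genes that passed the filter on low counts through 1 group only were kept, here and under the drugs. The shares over all genes keep such genes too. List counts and medians may therefore lean toward that group. RUNX2, CAV1 and CTGF were below the 0.169 CPM of the filter in CHLA15.

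The NOTCH and EMT lists held more lower than higher genes, and their shares of higher genes lay near or below that over all genes. Of 16 tested NOTCH genes 6 were higher and 9 lower in NB1691 than in CHLA15: NOTCH1 was at 0.161 against 6.47 CPM, NOTCH3 at 3.88 against 50.0 CPM and the ligand JAG2 at 0.357 against 27.1 CPM. Of 9 other EMT factors and cadherins 3 were higher and 6 lower, with FOXC2 at 9.76 against 0.0591 CPM and ZEB1 at 47.7 against 157 CPM. Among 20 adrenergic genes 18 were lower and 2 higher, including TH (log2 fold change -8.16) and TFAP2B (-6.82). The 5 fibroblast markers summed to 16341 to 16640 CPM in untreated NB1691 and to 131 to 578 CPM in the other untreated lines, driven by COL1A1 at 14699.5 CPM and LUM at 1753 CPM, while DCN and PDGFRA were at 2.29 and 1.95 CPM, below their 77.1 and 289.6 CPM in CHLA15. Of these 5 markers, 2 were higher and 3 lower in NB1691 than in CHLA15 (median log2 fold change -0.49). The 5 Schwann cell markers summed to 15.1 to 15.5 CPM in untreated NB1691 and 1.86 to 4.07 CPM in the other untreated lines (4 of 4 tested higher than in CHLA15), with SOX10 at 0 counts in all these libraries. The 5 leukocyte markers summed to 139 to 141 CPM against 11.5 to 29.3 CPM (3 higher and 1 lower of 5), with PTPRC at 0.383 to 0.544 CPM in NB1691. The 5 endothelial markers summed to 11.2 to 11.4 CPM against 0.0767 to 3.01 CPM (3 higher and 1 lower of 5). Whether other cells took part in these differences was not tested.

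Palbociclib was followed by lower RNA of most members that moved, in a line-dependent way. CHLA15 had 6 of 10 members lower and none higher, beside 29.8% of all genes in either direction (14.2% higher, 15.6% lower). CHLA20 had 5 lower and none higher (29.6% of all genes, 13.7% higher and 15.9% lower), NB1643 6 lower and 1 higher (39.9%, with 20.3% higher and 19.7% lower), and NB1691 2 lower and 2 higher (32.8%, with 17.4% higher and 15.5% lower). The CHLA15 count fell to 3 without palbociclib replicate 1 or untreated replicate 1, and the NB1691 count to 1 or 2 without any single NB1691 library. The median log2 fold changes were -0.38, -0.40, -0.68 and -0.065 in that order, over the 10, 9, 8 and 10 members with a fold, beside -0.00209, 0, 0 and 0.019 over all genes. The response differed between the lines for 8 of the 10 members by the interaction term of edgeR's fit, beside 38% of all genes. The dose was 300 nM in both CHLA lines and 3 μM in both NB lines. Line and dose therefore cannot be told apart between a CHLA and an NB line, while lines of the same pair had the same dose.

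The EMT factors TWIST1 and SNAI2 fell in 3 lines. TWIST1 went from 203 and 189.6 CPM to 129 and 116 CPM in CHLA15, from 185 and 200.4 CPM to 129 and 134 CPM in CHLA20, and from 159.7 and 156 CPM to 86.5 and 84.0 CPM in NB1643. The groups did not overlap in these lines, and TWIST1 fell by 0.68, 0.55 and 0.89 on the log2 scale (adjusted p = 7.4e-08, 7.41e-07 and 7.18e-10). In NB1691, where TWIST1 was low, it was at 15.5 and 15.5 CPM untreated and 14.9 and 14.9 CPM treated (adjusted p = 0.569).

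SNAI2 went from 9.10 and 8.79 CPM to 4.39 and 5.01 CPM in CHLA15, from 10.9 and 12.3 CPM to 5.73 and 5.75 CPM in CHLA20 and from 10.3 and 11.0 CPM to 5.97 and 6.80 CPM in NB1643. In all 3 lines both treated libraries were below both untreated ones (log2 fold change -0.93 ± 0.087 SE, adjusted p = 2.22e-07 in CHLA15; -1.01 ± 0.083 and 3.29e-08 in CHLA20; -0.74 ± 0.084 and 9.44e-07 in NB1643). In NB1691 the direction was the opposite, from 107 and 106 CPM to 122 and 123 CPM (log2 fold change 0.21 ± 0.063 SE, adjusted p = 0.0165), a call that was lost whichever of the 4 NB1691 libraries was left out (adjusted p = 0.0776 to 0.101).

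WWTR1 fell in CHLA15, CHLA20 and NB1643, in both CHLA lines by more than any other member that passed the test. It went from 2.49 and 2.42 CPM to 0.875 and 0.545 CPM in CHLA15, from 1.52 and 1.48 CPM to 0.546 and 0.468 CPM in CHLA20 and from 0.341 and 0.441 CPM to 0.169 and 0.225 CPM in NB1643. This was 3.46-fold lower in CHLA15 (log2 fold change -1.79 ± 0.16 SE, adjusted p = 1.1e-07), 2.95-fold lower in CHLA20 (adjusted p = 4.02e-06) and 1.97-fold lower in NB1643 (adjusted p = 0.0224), and the groups did not overlap. The NB1643 call was lost without palbociclib replicate 1 (adjusted p = 0.214) or untreated replicate 2 (0.113), and with limma-voom (0.0510) or a fit of NB1643 alone (0.0894). In NB1691, with the highest WWTR1 level, the libraries overlapped, at 60.6 and 60.03 CPM untreated and 57.1 and 60.6 CPM treated, and the 95% interval of the log2 difference was -0.19 to 0.12. Its paralog YAP1 was at 192 and 197 CPM untreated and 177 and 183 CPM treated in NB1691 (adjusted p = 0.218, and 0.00308 in a fit of NB1691 alone), and stayed at 0.186 CPM or less in every library of the other 3 lines, where no difference passed the test.

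CD44 was the member that fell in all 4 lines. It went from 35.2 and 33.7 CPM to 29.4 and 30.5 CPM in CHLA15 (log2 fold change -0.20 ± 0.063 SE, adjusted p = 0.0206), and from 35.7 and 33.1 CPM to 26.3 and 26.0 CPM in CHLA20 (log2 fold change -0.40 ± 0.064 SE, adjusted p = 9.38e-05). In NB1643 it went from 13.2 and 14.7 CPM to 6.95 and 7.79 CPM (log2 fold change -0.92 ± 0.076 SE, adjusted p = 1.62e-08) and in NB1691 from 122 and 119.8 CPM to 85.8 and 82.9 CPM (log2 fold change -0.52 ± 0.060 SE, adjusted p = 1.92e-06). The groups did not overlap in any line. In CHLA15, where the change was smallest, the call was lost without palbociclib replicate 1 (adjusted p = 0.143) or untreated replicate 1 (0.141).

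FN1 differed in direction between the lines. FN1 went from 556 and 533 CPM to 425 and 465 CPM in CHLA15 (log2 fold change -0.29 ± 0.099 SE, adjusted p = 0.033), and rose from 4.13 and 4.68 CPM to 6.37 and 6.85 CPM in NB1643 (log2 fold change 0.59 ± 0.15 SE, adjusted p = 0.00427). In NB1691 it went from 61798 and 61799.9 CPM to 70654.5 and 78475 CPM (log2 fold change 0.27 ± 0.099 SE, adjusted p = 0.0425), and in CHLA20 from 282 and 200.2 CPM to 253 and 257 CPM, where the groups overlapped (adjusted p = 0.626). The CHLA15 call was lost without palbociclib replicate 1, untreated replicate 1 or untreated replicate 2 (adjusted p = 0.0824 to 0.225), and the NB1691 call without palbociclib replicate 2, untreated replicate 1 or untreated replicate 2 (0.14 to 0.27) or with the replicate number as a block (0.061). The NB1643 call was lost without untreated replicate 1 (0.0543) and with limma-voom (0.0964), and CHLA20 gave a rise of 0.33 on the log2 scale without untreated replicate 1 (adjusted p = 0.000761).

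VIM was lower on average in every line and passed the test in the NB lines, from 419 and 392 CPM to 288 and 284 CPM in NB1643 (log2 fold change -0.51 ± 0.051 SE, adjusted p = 2.37e-07) and from 2285 and 2346 CPM to 2036 and 2036 CPM in NB1691 (log2 fold change -0.19 ± 0.051 SE, adjusted p = 0.00853). The second of these was lost without palbociclib replicate 1, palbociclib replicate 2 or untreated replicate 2 (adjusted p = 0.0587 to 0.0885). In CHLA15 VIM was at 672 and 646 CPM untreated and 655 and 609 CPM treated, and in CHLA20 at 522 and 548 CPM and 489 and 511 CPM (adjusted p = 0.415 and 0.172).

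NOTCH2 passed the test in 1 line, RUNX1 in both CHLA lines and PRRX1 in none. NOTCH2 went from 23.4 and 18.2 CPM to 13.3 and 14.2 CPM in NB1643 (log2 fold change -0.61 ± 0.11 SE, adjusted p = 0.000174), with groups that did not overlap, while the other 3 lines gave adjusted p values of 0.676 (CHLA15), 0.629 (CHLA20) and 0.602 (NB1691). RUNX1 went from 3.15 and 2.52 CPM to 2.11 and 2.03 CPM in CHLA15 (log2 fold change -0.47 ± 0.14 SE, adjusted p = 0.0149) and from 3.23 and 2.49 CPM to 2.00 and 2.26 CPM in CHLA20 (log2 fold change -0.44 ± 0.14 SE, adjusted p = 0.0228). The CHLA15 call was lost without either palbociclib library or untreated replicate 1 (adjusted p = 0.0551 to 0.247), and the CHLA20 call without palbociclib replicate 1 or untreated replicate 1 (0.151 to 0.300), with limma-voom (0.0620) or in a fit of CHLA20 alone (0.0997). RUNX1 in NB1643 and NB1691 stayed between 15.4 and 17.8 CPM in all 8 libraries. PRRX1 in NB1691 was at 2.08 and 1.65 CPM untreated and 1.14 and 0.904 CPM treated, which did not overlap and just missed the threshold (log2 fold change -0.85 ± 0.31 SE, adjusted p = 0.0512), and it passed with limma-voom, with no filter and in a fit of the NB1691 libraries alone (adjusted p = 0.0172, 0.00831 and 0.000984).

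**Figure D2:**
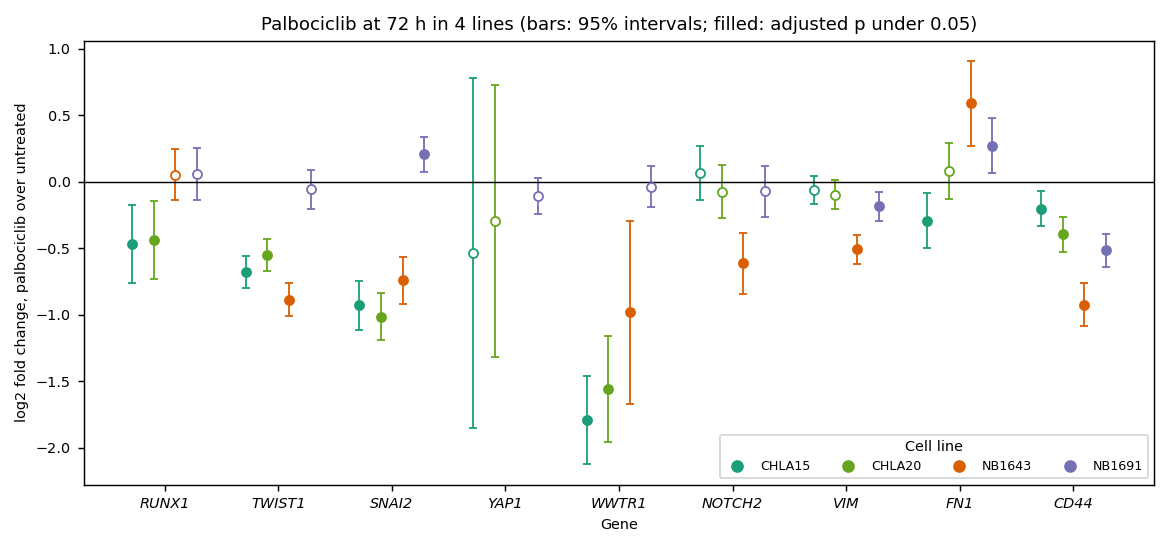
Log2 fold change of palbociclib over untreated cells in each line, with 95% confidence intervals from edgeR, for 9 members (PRRX1 is left out, and YAP1 in NB1643 is not drawn because its counts were at the detection limit). Filled points have an adjusted p under 0.05. WWTR1, SNAI2 and TWIST1 lie below 0 in CHLA15, CHLA20 and NB1643 and near or above 0 in NB1691.

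The lists beside the members went in both directions under palbociclib, and are set beside 14.2% of all genes higher and 15.6% lower in CHLA15, 13.7% and 15.9% in CHLA20, 20.3% and 19.7% in NB1643 and 17.4% and 15.5% in NB1691. Of 30 other mesenchymal regulators, 3 were higher and 10 lower in CHLA15, 2 and 10 in CHLA20, 3 and 15 in NB1643 and 4 and 15 in NB1691. TCF7L2, a WNT effector, fell by 1.52, 1.93 and 1.86 on the log2 scale in CHLA15, CHLA20 and NB1643, and FOSL1, an AP-1 subunit, fell by 1.22 in NB1691. Of 18 TEAD, Hippo and YAP1 target genes, 6 were higher and none lower in NB1691, among them ANKRD1 (log2 fold change 0.95 ± 0.066 SE) and CTGF (0.78 ± 0.058 SE), against 5 higher and 8 lower in CHLA15, 1 and 7 in CHLA20 and 3 and 7 in NB1643. AJUBA, a LIM protein of the Hippo pathway, fell by 1.92 in CHLA15, 2.44 in CHLA20 and 0.97 in NB1643.

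NOTCH1 fell by 2.03 in CHLA15, 2.11 in CHLA20 and 1.42 in NB1643 on the log2 scale, while NOTCH2 passed the test only in NB1643 of these lines. Of the 16 tested NOTCH genes, 4 were higher in each line and 4, 5, 7 and 2 lower in CHLA15, CHLA20, NB1643 and NB1691. Matrix genes split by line: 3 of 25 higher and 8 lower in CHLA15, 3 and 12 in CHLA20, 4 and 7 in NB1643, but 11 and 7 in NB1691, where POSTN and THBS1, secreted matrix proteins, rose by 1.51 and 1.40. SNAI1, the paralog of SNAI2, fell in NB1691 (log2 fold change -1.08 ± 0.072 SE), CHLA15 (-0.82) and CHLA20 (-0.47). Of the other EMT genes 3 were higher and 2 lower in CHLA15, 4 and 2 in CHLA20, 3 and 3 in NB1643 and 1 and 3 in NB1691. Of the adrenergic genes, 12 of 20 were higher and 2 lower in NB1643 and 11 and 1 in NB1691, against 5 and 6 in CHLA15 and 6 and 2 in CHLA20. The fibroblast markers summed to 421 to 437 CPM in treated CHLA15, 355 to 365 CPM in CHLA20, 54.3 to 56.97 CPM in NB1643 and 21156 to 22031 CPM in NB1691, below the untreated range in the first 3 lines and above it in NB1691. In NB1691 the leukocyte markers summed to 92.2 to 98.3 CPM and the Schwann cell markers to 19.8 to 20.4 CPM with palbociclib. The endothelial markers summed to 4.10 to 5.41 CPM in treated CHLA15 and 3.99 to 4.76 CPM in treated CHLA20. Their part in the members' changes was not tested.

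GSK-J4 was followed by changes in both directions among the members. The reference is 0 h, with no untreated cells at 24 or 48 h, so GSK-J4 and time in culture cannot be told apart. The siCtrl libraries, without GSK-J4 and fitted apart, also lay above both 0 h libraries for some members. They held 286 and 287 CPM of VIM, 54.0 and 58.9 CPM of FN1 and 9.78 and 10.4 CPM of SNAI2. YAP1 was at 1.12 and 0.919 CPM there and TWIST1 at 70.4 and 65.8 CPM, while CD44 was below 0 h (2.49 and 2.86 CPM). RUNX1 passed the filter on low counts only through the 48 h libraries and WWTR1 only through the 0 h libraries, and each was left out of the counts and medians of comparisons with that time. At 24 h, 5 of 8 members differed from 0 h (2 higher, 3 lower), beside 55.3% of all 17734 genes tested (27.3% higher, 28% lower). At 48 h, 6 of 7 did (4 higher, 2 lower), beside 71.5% (37.1% higher, 34.4% lower). From 24 h to 48 h, 4 of 8 rose and none fell, beside 53.9% of all genes called (25.9% higher, 28% lower). The median log2 fold change was 0.0674 at 24 h (-0.168 with WWTR1), 0.42 at 48 h and 0.435 from 24 h to 48 h, beside 0.0141, 0.0546 and 0.0107 over all genes. At least 2-fold changes were called for 2, 4 and 1 of these members beside 9.67%, 20.9% and 6.34% of all genes. The 3 comparisons share libraries pairwise.

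VIM rose at each time, from 170.4 and 176 CPM at 0 h to 319.9 and 333 CPM at 24 h and 461 and 466 CPM at 48 h. The 3 groups did not overlap, and VIM was 1.88-fold and 2.68-fold above 0 h (log2 fold change 1.42 ± 0.030 SE, adjusted p = 2.48e-37 at 48 h). TWIST1 and CD44 went the other way. TWIST1 was at 51.6 and 54.0 CPM at 0 h, 30.1 and 28.5 CPM at 24 h and 27.6 and 27.0 CPM at 48 h (log2 fold change -0.85 ± 0.048 SE, adjusted p = 4.67e-20 at 24 h; log2 fold change -0.95 ± 0.048 SE, adjusted p = 1.5e-22 at 48 h). CD44 was at 3.70 and 4.36 CPM, 1.54 and 1.87 CPM and 1.93 and 1.80 CPM at these times, 2.36-fold and 2.15-fold lower than at 0 h (adjusted p = 1.19e-08 and 2.71e-08). For both, all treated libraries were below all 0 h libraries, and 24 h and 48 h were not told apart (adjusted p = 0.0917, and 0.043 without 24 h replicate 2, for TWIST1 and 0.544 for CD44).

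FN1 fell and then rose. It was at 27.9 and 32.6 CPM at 0 h, 25.1 and 23.6 CPM at 24 h and 40.8 and 40.2 CPM at 48 h. The 24 h libraries were below and the 48 h libraries above both 0 h libraries (log2 fold change -0.31 ± 0.059 SE, adjusted p = 1.25e-05 at 24 h; log2 fold change 0.42 ± 0.054 SE, adjusted p = 2.71e-09 at 48 h). SNAI2, at 6.46 and 6.42 CPM, 5.61 and 5.85 CPM and 7.63 and 7.09 CPM, had the same shape, of which only the rise from 24 h to 48 h passed the test (log2 fold change 0.36 ± 0.096 SE, adjusted p = 0.00121). Against 0 h its adjusted p was 0.182 at 24 h and 0.0736 at 48 h, and with upper-quartile scaling the 48 h difference passed (0.31 on the log2 scale, adjusted p = 0.0056), as it did with each file as a sample (0.0358).

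NOTCH2 and YAP1, both low, were higher at 48 h than at 0 h. NOTCH2 was at 0.552 and 0.338 CPM at 0 h, 0.590 and 0.511 CPM at 24 h and 1.25 and 1.46 CPM at 48 h, 3.01-fold above 0 h at 48 h (log2 fold change 1.59 ± 0.30 SE, adjusted p = 8.49e-06) with overlap at 24 h (adjusted p = 0.501). RUNX1 was at 0.0276 and 0 CPM, 0.105 and 0.0426 CPM and 0.232 and 0.385 CPM, which is 1 count in both 0 h libraries together and 34 at 48 h, a ratio of 21.4 (95% counting interval 3.59 to 869). Because RUNX1 passed the filter only through 48 h, no test is given. The interval covers counting error only, not the spread between libraries or the filter, and does not stand for a test. YAP1 was at 0.221 and 0.225 CPM, 0.506 and 0.575 CPM and 0.602 and 0.769 CPM, and all treated libraries lay above both 0 h libraries (log2 fold change 1.27 ± 0.44 SE, adjusted p = 0.0129 at 24 h; log2 fold change 1.59 ± 0.41 SE, adjusted p = 0.000689 at 48 h). The YAP1 call at 24 h was lost without either 0 h library or 24 h replicate 2 (adjusted p = 0.0574 to 0.0682) and with DESeq2 (0.064). WWTR1, the paralog of YAP1, was at 0.497 and 0.281 CPM at 0 h, 0.105 and 0.149 CPM at 24 h and 0.0926 and 0.304 CPM at 48 h. It passed the filter only through 0 h, so its differences from 0 h are also given without their test. The fitted log2 fold change at 24 h was -1.60 ± 0.57 SE, with both 24 h libraries below both 0 h libraries. Leaving out single libraries moved it between -1.94 and -1.13. At 48 h the groups overlapped, with log2 fold changes of -2.05 to -0.362 when single libraries were left out. PRRX1 had 3 counts or fewer in every BE2C library and was not tested.

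**Figure D3:**
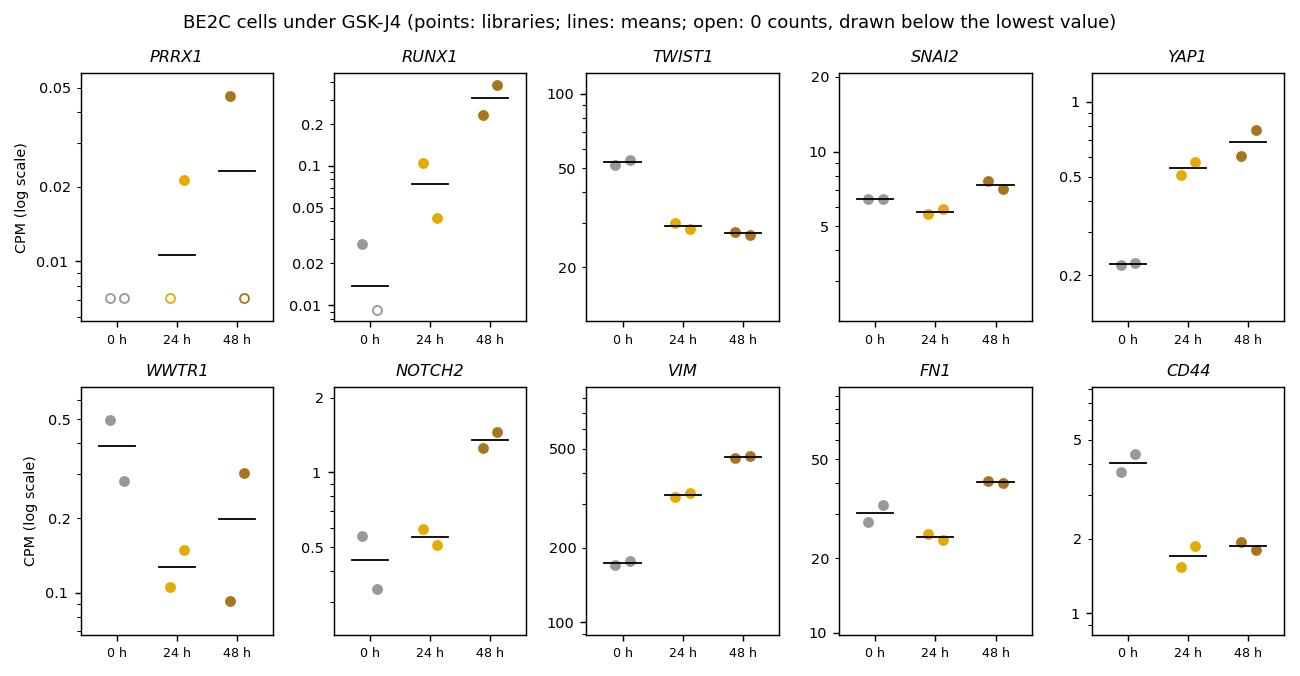
Level of each member in BE2C cells after 0, 24 and 48 h of GSK-J4, in CPM on a log axis, with points for libraries, black lines for means of 2 libraries and open points for 0 counts, drawn below the lowest value. VIM climbs from 170.4 and 176 CPM to 461 and 466 CPM, TWIST1 and CD44 drop by 24 h, and FN1 dips at 24 h and exceeds 0 h at 48 h.

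At 48 h of GSK-J4, where 37.1% of all genes were higher and 34.4% lower, the lists read as follows. Of 24 tested mesenchymal regulators 16 were higher and 7 lower than at 0 h (median log2 fold change 0.811), with IRF1, an interferon regulatory factor, and NR3C1, the glucocorticoid receptor, rising by 2.21 ± 0.105 SE and 2.07 ± 0.171 SE, and AEBP1 falling by 1.84. Of 14 NOTCH genes 8 were higher and 4 lower, with the targets HEY1 (log2 fold change 2.04) and HES1 (1.21) and the ligand JAG1 (0.74) among the former. Of 14 TEAD, Hippo and YAP1 target genes 7 were higher and 4 lower: AJUBA rose by 3.56 while TEAD2 and TEAD3, DNA-binding partners of YAP1, fell by 2.76 and 1.36. Of 8 other EMT factors and cadherins 1 was higher and 6 lower, led by CDH11 (-2.40) and CDH2 (-0.52), and of 20 matrix genes 9 were higher and 8 lower, near the shares over all genes, led by TGFB1 (2.73) and COL6A3 (2.70). Of the adrenergic genes 4 were higher and 15 lower, and this list summed to 4774 to 4853 CPM at 0 h and 4184 to 4204 CPM at 48 h. The fibroblast markers summed to 15.5 to 15.8 CPM at 0 h and 7.43 to 7.75 CPM at 48 h. In the same order, the leukocyte markers summed to 74.3 to 75.9 and 22.5 to 23.0 CPM, the Schwann cell markers to 2.17 to 3.04 and 5.47 to 5.82 CPM and the endothelial markers to 0.386 to 0.422 and 2.32 to 2.65 CPM. Their part in the members' values was not tested. KDM6B RNA rose from 7.42 and 8.16 CPM to 23.7 and 22.8 CPM.

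In the siRNA experiment no member passed the test over the 3 libraries labelled siKDM6B against 2 siCtrl libraries. This was 0 of 8 tested members beside 0% of all 17472 genes tested by edgeR, where 1615 genes and 0 members had an unadjusted p under 0.05 and DESeq2 called 164 genes. The members' median log2 fold change was 0.0806, beside 0.044 over all genes. Levels of single members went in different directions between the 3 siRNAs.

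VIM in siCtrl was at 286 and 287 CPM, against 368 (N1), 158 (N2) and 85.8 (N33) CPM, above siCtrl with 1 siRNA and below it with 2 (95% interval of the log2 difference -1.83 to 0.85). FN1 in siCtrl was at 54.0 and 58.9 CPM, against 38.5 (N1), 178 (N2) and 16.4 (N33) CPM (-1.71 to 2.63). CD44 in siCtrl was at 2.49 and 2.86 CPM, against 7.002 (N1), 1.67 (N2) and 0.536 (N33) CPM (-2.09 to 2.48). These 3 genes had different patterns: N1 was highest for VIM and CD44, N2 for FN1, and N33 was lowest for all 3.

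SNAI2 in siCtrl was at 9.78 and 10.4 CPM, against 8.44 (N1), 13.2 (N2) and 2.83 (N33) CPM. TWIST1 in siCtrl was at 70.4 and 65.8 CPM, against 80.6 (N1), 74.4 (N2) and 44.7 (N33) CPM. Both EMT factors were lowest with N33 and overlapped siCtrl as a group. NOTCH2, at 0.498 and 0.620 CPM in the controls and at 0.852 (N1), 0.648 (N2) and 2.04 CPM (N33), was the only tested member with every labelled library above both controls (log2 fold change 1.07 ± 0.60 SE, adjusted p = 0.631). For YAP1 the controls held 1.12 and 0.919 CPM and N1, N2 and N33 held 0.497, 1.16 and 1.14 CPM, and for WWTR1 the controls held 0.473 and 0.385 CPM and N1, N2 and N33 0.402, 0.432 and 0.944 CPM. RUNX1 ranged from 0.0214 to 0.284 CPM over the 5 libraries and PRRX1 from 0 to 0.071 CPM, too few counts for a test.

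Each siRNA has 1 library, so its own difference has no replicate check and is given as a value, fitted over all 11 BE2C libraries, without a test. With N33, VIM was 3.35-fold, SNAI2 3.59-fold, FN1 3.47-fold, CD44 5.01-fold and TWIST1 1.53-fold lower, and NOTCH2 and WWTR1 were 3.59-fold and 2.20-fold higher. In the N33 library the adrenergic list also summed to 1369 CPM against 3615 to 3812 CPM in siCtrl, and the fibroblast markers to 207 CPM against 86.8 to 93.2 CPM. The leukocyte markers summed there to 41.6 CPM against 45.7 to 47.9 CPM, the Schwann cell markers to 2.47 CPM against 5.08 to 5.21 CPM and the endothelial markers to 0.0429 CPM against 0.423 to 0.470 CPM. MYCN was at 466 CPM against 1596 and 1613 CPM. Their part in the members' values was not tested. No gene of the other lists was called in the comparison of the group.

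**Figure D4:**
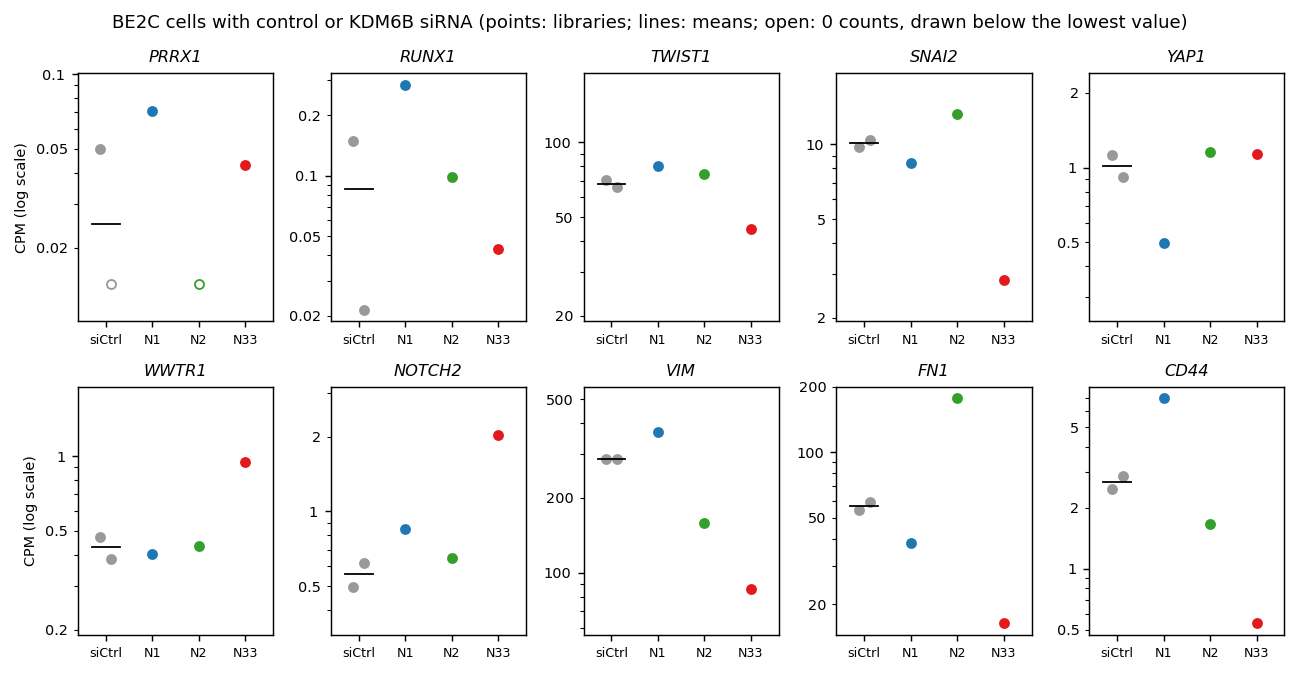
Level of each member in BE2C cells 72 h after the control siRNA (2 libraries) or a siRNA labelled against KDM6B (N1, N2 and N33, 1 library each), in CPM on a log axis, with the mean of siCtrl as a black line and open points for 0 counts, drawn below the lowest value. N33 is lowest for VIM, SNAI2, FN1, CD44 and TWIST1 and highest for NOTCH2 and WWTR1.

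BE2C at 0 h of GSK-J4 is set beside the other lines only as values, since it was fitted apart. Per kb of transcript it held 80.5 CPM of VIM, 32.4 CPM of TWIST1, 3.61 CPM of FN1 and 2.95 CPM of SNAI2, while YAP1, NOTCH2 and WWTR1 were below 0.1 CPM per kb.

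For each member, the gene outside the list with the most similar log2 CPM over the 16 palbociclib libraries was named among 15079 genes. These were WT1-AS for PRRX1 (Pearson r = 0.997), SLC12A8 for RUNX1 (0.996), CNN2 for NOTCH2 (0.997), MIR4435-2HG for VIM (0.995), PID1 for SNAI2 (0.995), MX2 for YAP1 (0.9998), HACD4 for WWTR1 (0.997), PLEKHA2 for FN1 (0.997), ARNTL2 for CD44 (0.996) and IL17RD for TWIST1 (0.995). MX2, for example, was at 47.7 CPM in untreated NB1691 and 0.0586 CPM or less in the other lines, and IL17RD at 7.32 CPM in NB1691 and 114 to 155 CPM in the others. The libraries come from 4 lines, so these correlations describe differences between lines and are given without a p-value.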

How the data were processed

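The deposited whole-number read counts per gene symbol were made by the authors, per the labels and the methods, with CASAVA, STAR 2.5.3a and HTSeq on hg19/GRCh37, with no normalization. The annotation stated for counting is of mouse, although the listed symbols are human. One label describes the RNA as from xenograft tissue, and the others name cell lines. The 38 samples held 27 libraries: the 22 BE2C files were summed in pairs, because files of 1 library differed by little more than counting noise (chi-square per degree of freedom 1.48 to 1.65) and files of different replicates by 1.89 to 4.33. Replicates of the other lines differed by 2.22 to 24.3. Counts on no gene (5.1 to 16.8% of reads) were left out.

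The members and gene lists were chosen with earlier results of these data known. Each experiment was fitted apart over all its groups with edgeR 4.0.16 (R 4.3.3): TMM scaling, filterByExpr by group, quasi-likelihood F tests, and p-values adjusted by Benjamini-Hochberg over all genes tested (22133 palbociclib, 17734 GSK-J4, 17472 siRNA), called at an adjusted p under 0.05. Alternatives were upper-quartile scaling, DESeq2 1.42.0, limma-voom (limma 3.58.1, the study's own test), no filter, the replicate number as a block, each file as a sample, only the compared groups, all BE2C libraries in 1 fit, and leaving out each library. Scripts were tested on simulated data. Where a member reached 10 counts at the median library size in all libraries of only 1 of the groups compared, and in no other line or time, it was left out of the counts and medians of members. Genes of the other lists were not left out in this way. All 10 members are named. From each other list, at most 3 called genes a comparison were eligible to be named, those with the largest absolute log2 fold change and a mean of at least 1 CPM. Likeness used log2(CPM + 0.5). A library had a detection limit of 3 counts, between 36186567 and 93011010 counts on genes in all. Depth of the palbociclib libraries was 45457371 to 93011010, of the GSK-J4 libraries 36186567 to 63433818 and of the siRNA libraries 41227956 to 50776662 counts on genes. Same-numbered replicates did not deviate together (r of replicate differences -0.0973 to 0.124), so numbers were not taken as pairs.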

Additional observations from a re-analysis of the deposited data

Results flagged for a closer look

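The response to palbociclib differed between the 4 lines, by edgeR's interaction test over 16 libraries, for 8 of the 10 members, and each is given here as a value. For SNAI2 the adjusted interaction p was 3.73e-08, with log2 fold changes of -0.93, -1.01, -0.74 and 0.21 in CHLA15, CHLA20, NB1643 and NB1691. For WWTR1 it was 4.11e-07 (-1.79, -1.56, -0.98 and -0.036 in the same order), and for TWIST1 7.76e-06 (-0.68, -0.55, -0.89 and -0.058). CD44 gave 0.000118 (-0.20, -0.40, -0.92 and -0.52), with the same direction in every line, and VIM 0.000269 (-0.062, -0.098, -0.51 and -0.19). FN1 gave 0.00277 (-0.29, 0.079, 0.59 and 0.27), NOTCH2 0.00577 (0.066, -0.075, -0.61 and -0.071) and RUNX1 0.0153 (-0.47, -0.44, 0.054 and 0.060). PRRX1 and YAP1 did not pass (0.522 and 0.26). Both CHLA lines received 300 nM and both NB lines 3 μM. The line and the dose therefore cannot be told apart in differences between a CHLA and an NB line, while NB1643 and NB1691 had the same dose.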

How the results depend on the processing

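Changing the method or the fit turned the direction of no called member. In the siRNA comparison, FN1 and CD44, neither called in the test reported above, turned to -0.218 and -0.545 with limma-voom and to -0.235 and -0.546 with all BE2C libraries in 1 fit, which called 5 members in place of 0 but takes its spread from groups other than the single siRNA libraries. All genes called there went from 0 to 164 with DESeq2, 84 with no filter, 2354 with each file as a sample and 10714 with all BE2C libraries in 1 fit. WWTR1 under palbociclib in NB1691 went to 0.00773 with upper-quartile scaling, and CD44 between CHLA20 and CHLA15 to 0.0102 with DESeq2 and 0.00179 in a fit of the compared groups only, where all genes called went from 2736 to 1285 (and to between 1130 and 1370 when any of 3 of its 4 libraries was left out; the cause was not tested). Upper-quartile scaling moved the median of all genes by 0.11 at 48 h of GSK-J4 and by -0.118, -0.114 and -0.189 in NB1691 over CHLA15, CHLA20 and NB1643, and the share of higher calls from 24 h to 48 h of GSK-J4 from 48.1% to 58.1%. Leaving out single libraries, where a lone library left in a group is assumed to vary like the others, gave 3 to 5 called members under palbociclib in CHLA15, 1 to 2 in NB1691 and 0 in the siRNA comparison. It turned the sign of uncalled members, with these ranges of log2 fold change: for siKDM6B, SNAI2 -0.832 to 0.103, YAP1 -0.312 to 0.178, WWTR1 -0.0316 to 0.684, FN1 -1.03 to 0.94, CD44 -1.27 to 0.69 and TWIST1 -0.188 to 0.189; for GSK-J4, NOTCH2 at 24 h -0.0019 to 0.70, and from 24 h to 48 h WWTR1 -0.45 to 1.23 and CD44 -0.0088 to 0.27; for palbociclib, PRRX1 -2.25 to 4.10 and NOTCH2 -0.099 to 0.21 in CHLA15, YAP1 -0.79 to 0.53 and FN1 -0.16 to 0.33 in CHLA20, and WWTR1 -0.077 to 0.0075 in NB1691; and between CHLA20 and CHLA15, RUNX1 -0.194 to 0.195, YAP1 -0.15 to 1.15, CD44 -0.051 to 0.053 and TWIST1 -0.079 to 0.039. The replicate number as a block, which is only a shared number here, changed 1 member's call, FN1 under palbociclib in NB1691 (0.27 on the log2 scale, adjusted p = 0.061). No paired analysis was possible for the siRNA comparison because its groups share fewer than 2 numbers. Depth limits YAP1, PRRX1 and RUNX1 most, with counts at or near the detection limit in several groups.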
